A study of Sus scrofa with 48 samples.

Results

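The serpin protease inhibitor family was described in longissimus muscle of pigs from lines selected for low or high residual feed intake (RFI), the feed eaten beyond what growth and maintenance predict. Its members were the probes of a porcine expression array whose gene name or description gave a SERPIN symbol or the words serpin peptidase inhibitor, and 47 probes of 20 genes matched among 60305 probes. Of these, 28 probes of 14 genes passed the detection filter, a signal well above background on 12 or more of 48 arrays, and were tested, within 42125 tested probes in all. The other 19 probes were well above background on at most 10 arrays, and 6 genes, AGT, SERPINA10, SERPINA3, SERPINA3-2, SERPINB12 and SERPINB7, had no tested probe. The 48 pigs were purebred Large White barrows with free access to feed, and 12 pigs of each line received a diet high in fat and fiber (HF) or a diet low in both (LF). The groups are called RFIneg (low RFI) and RFIpl (high RFI) in the labels, with HF or LF for the diet, and no other treatment, allele or age is given there. Each pig was 1 biological sample on 1 one-colour array. The comparison of lines is between 1 selected line of each kind. Of 10 listed skeletal muscle fibre genes, 9 were matched by symbol and all 9 were tested, while MB was not analysed here. Listed genes of other cell types passed the same filter, so this does not check the tissue label.

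Serpins are proteins that stop proteases by a suicide mechanism: the protease cuts an exposed loop of the serpin and is then trapped in a covalent complex. Clade A holds plasma inhibitors and hormone carriers made mainly by the liver, such as SERPINA1 (alpha-1-antitrypsin, which blocks neutrophil elastase), while clade B serpins act mostly inside cells. A few members inhibit nothing, among them SERPINA6 and SERPINA7 (carriers of cortisol and thyroid hormone) and SERPINH1 (HSP47, a collagen chaperone of the endoplasmic reticulum). SERPINE2 inhibits plasminogen activators and thrombin, SERPINC1 is antithrombin, and SERPING1 is the C1 inhibitor of the complement and contact systems.

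Each probe is a 60-base oligonucleotide that reads 1 stretch of a transcript, and probes of a gene did not always report the same thing. The sequences below come from the array files and are written 5′ to 3′. The SERPINA1, SERPINA7 and SERPINC1 probes are shown because 1 or more of their probes was measured on nearly all arrays while another was near background, and the SERPING1 pair because the line comparison rests partly on them.
SERPINA1 A_72_P795910: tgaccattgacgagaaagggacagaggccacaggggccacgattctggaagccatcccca
SERPINA1 O4712: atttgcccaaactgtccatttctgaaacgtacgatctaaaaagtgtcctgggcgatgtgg
SERPINA7 A_72_P441484: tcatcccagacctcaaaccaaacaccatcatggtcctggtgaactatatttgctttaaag
SERPINA7 A_72_P146506: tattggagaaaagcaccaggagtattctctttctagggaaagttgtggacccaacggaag
SERPINC1 A_72_P579552: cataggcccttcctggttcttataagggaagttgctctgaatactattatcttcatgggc
SERPINC1 A_72_P378158: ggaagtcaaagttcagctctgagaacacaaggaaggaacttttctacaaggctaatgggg
SERPINC1 A_72_P520127: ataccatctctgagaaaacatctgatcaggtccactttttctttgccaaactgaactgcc
SERPING1 A_72_P209407: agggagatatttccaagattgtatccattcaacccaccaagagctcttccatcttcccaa
SERPING1 A_72_P011466: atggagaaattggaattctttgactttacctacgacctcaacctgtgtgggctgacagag
SERPINA1 A_72_P173811 was well above background on 47 arrays and A_72_P795910 on 46, but O4712 on 2. The array annotation gives O4712 a different transcript record from that of the other 2 probes. The 2 detected SERPINA1 probes shared no run longer than 5 bases, and their levels correlated at r = 0.97 across the 48 pigs. SERPINA7 A_72_P441484 was detected on 48 arrays and A_72_P146506 on 1. SERPINC1 A_72_P579552 was likewise detected on 48 arrays, against 3 arrays for each of the other probes of the gene. For SERPINA7 and SERPINC1, then, 1 probe alone carries the reading. Their probes near background are placed on the same transcript as the detected one. Whether the detected probe reads that gene was not tested, so values given below for these genes are those of 1 probe. No serpin probe on this array was read in a genome here, so no coordinates are given.

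Arrays were close to each other, with a median correlation with the other arrays between 0.975 and 0.987 and median processed signals of 52.8 to 108. Pig 45 (high RFI, HF diet) had the brightest array and the lowest correlation, and pig 41 (high RFI, HF diet) had the lowest SERPINA1 level. Line differences without pig 41 or pig 45 are therefore given where they matter. Each of the 6 slides carried 2 arrays from every group. No serpin value was missing or saturated. Below, a level is the log2 processed signal of a probe minus the mean over all tested probes of that array, and a difference is high minus low RFI, or HF minus LF, on the same log2 scale. Levels compare pigs for 1 probe and are not set against those of another probe.

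SERPINA1 was lower in the high RFI line, by the widest margin of any tested serpin, with a wider spread there. On probe A_72_P173811, low RFI pigs had a lowest, median and highest level of -0.70, 0.72 and 2.05 on the HF diet, and of -0.82, 0.49 and 1.40 on the LF diet. In the high RFI line the same values were -5.15, -1.16 and 0.66 with HF, and -2.67, -0.85 and 1.05 with LF. The lines overlapped: 13 of 24 high RFI pigs lay below the lowest low RFI pig, 11 lay within the low RFI range, and none lay above it. All 24 low RFI pigs were above the mean of the high RFI pigs. In bulk muscle, fewer cells of a type and less RNA per cell cannot be told apart.

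The difference was -1.45 (SE 0.32, n = 24 per line, limma adjusted p = 0.00137), or 2.74-fold lower signal in high RFI pigs. Probe A_72_P795910 gave -1.41 (SE 0.33, limma adjusted p = 0.00239), with means of -0.61 ± 0.71 (SD, n = 24) in low and -2.03 ± 1.47 (SD, n = 24) in high RFI pigs. The SD was 1.93 times as large in high as in low RFI pigs on the first probe and 2.09 times on the second, a difference in spread that was not tested. SERPINA1 probes are on the lists of genes that the study selected as predictors of feed conversion on pigs that include these 48, so their line difference is not independent evidence for those lists. By qPCR the study also reported a lower mean SERPINA1 level in its high RFI line. That ratio was smaller than the 2.74-fold here and came from a wider set of pigs that includes these 48.

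By diet, SERPINA1 passed the threshold in HF-fed pigs and not in LF-fed pigs, and the test of that difference did not pass. On the HF diet the line difference was -1.74 (SE 0.45, limma adjusted p = 0.0171) and -1.55 (SE 0.46, limma adjusted p = 0.0363) for the probes in the order above. On the LF diet it was -1.16 (SE 0.45, limma adjusted p = 0.164) and -1.28 (SE 0.46, limma adjusted p = 0.132). The line by diet interaction had a limma adjusted p of 0.999 for both probes, and the HF minus LF difference was 0.14 (SE 0.32) and 0.33 (SE 0.33), with limma adjusted p of 0.920 and 0.745.

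Pig 41 had the lowest value on both probes, -5.15 and -6.19, and neither was well above background there. Without this pig the line difference was -1.26 and -1.22 (limma adjusted p = 0.00101 and 0.00201). On the HF diet it was then -1.36 and -1.16 (limma adjusted p = 0.0315 and 0.0704), so the second probe lost its call. On the LF diet it stayed at -1.16 and -1.28 (limma adjusted p = 0.0795 and 0.0607). The second probe thus no longer had the wider difference on HF. The line difference was below 0 within each of the 6 slides, from -2.33 to -0.79 on the first probe and from -2.54 to -0.27 on the second, and on both scan days. A normexp background correction, which compresses dim signals, gave -1.04 and -0.76, both still past the threshold.

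**Figure D1:**
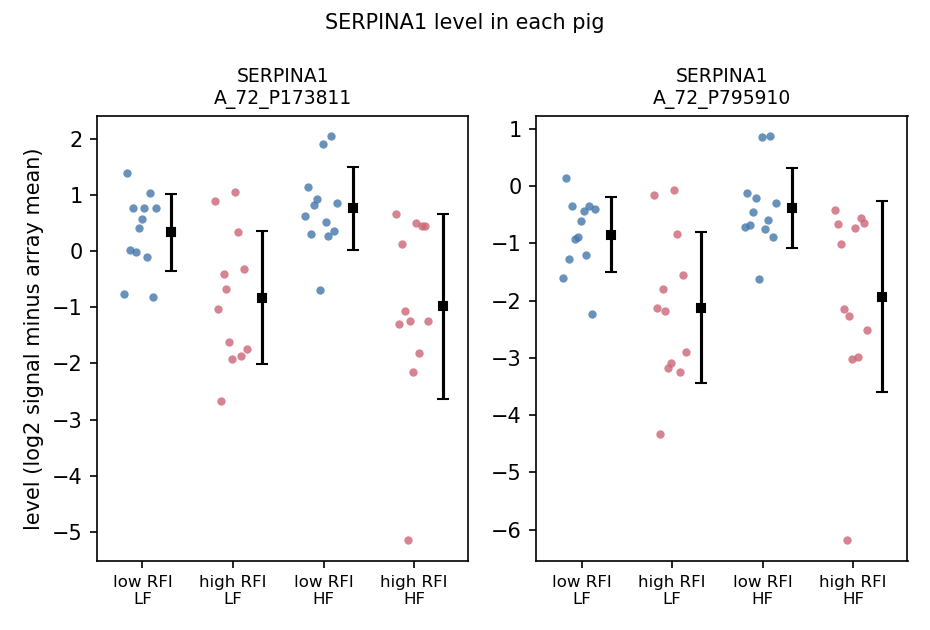
Level (log2 signal minus array mean) of SERPINA1 on 2 probes, with 1 point per pig, low RFI in blue and high RFI in red, by diet; black squares and bars are the mean and SD of 12 pigs. High RFI pigs extend far below the low RFI pigs, down to -5.15 on the left and -6.19 on the right (pig 41), while the upper pigs of both lines overlap.

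The other tested clade A members, and SERPINC1 of clade C, did not pass the threshold. SERPINA6, the cortisol carrier, had levels of -1.62 to -0.13 in low and -1.72 to -0.78 in high RFI pigs, and a difference of -0.05 (SE 0.08, limma adjusted p = 0.732). SERPINA7 A_72_P441484 differed by -0.17 (SE 0.09, limma adjusted p = 0.215). SERPINC1 A_72_P579552 differed by -0.02 (SE 0.12, limma adjusted p = 0.950), with means of -0.19 ± 0.49 and -0.20 ± 0.38 (SD, n = 24). SERPINA6 lies near SERPINA1, with 1 protein-coding gene between them in the RefSeq annotation.

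Across the family, 7 of 28 tested probes were called for the line difference, against 16.4% of all tested probes. In high RFI pigs 4 of them were higher, as were 6.57% of all probes, and 3 were lower, as were 9.85% of all probes. The 7 probes belong to 4 of the 14 genes, with SERPING1 and SERPINB1 higher and SERPINA1 and SERPINB6 lower, and probes of 1 gene read the same transcript, so their calls are not independent. The median difference over the 28 probes was 0.06, beside -0.03 over all tested probes. The 21 probes without a call had limma adjusted p from 0.115 to 0.959. On the HF diet alone 2 serpin probes were called, both of SERPINA1 and both lower, against 6.39% of all probes. On the LF diet no serpin probe was called by limma, and 2.47% of all probes were called. At an unadjusted p under 0.05 the counts were 7 of 28 serpin probes and 16.5% of all probes.

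**Figure D2:**
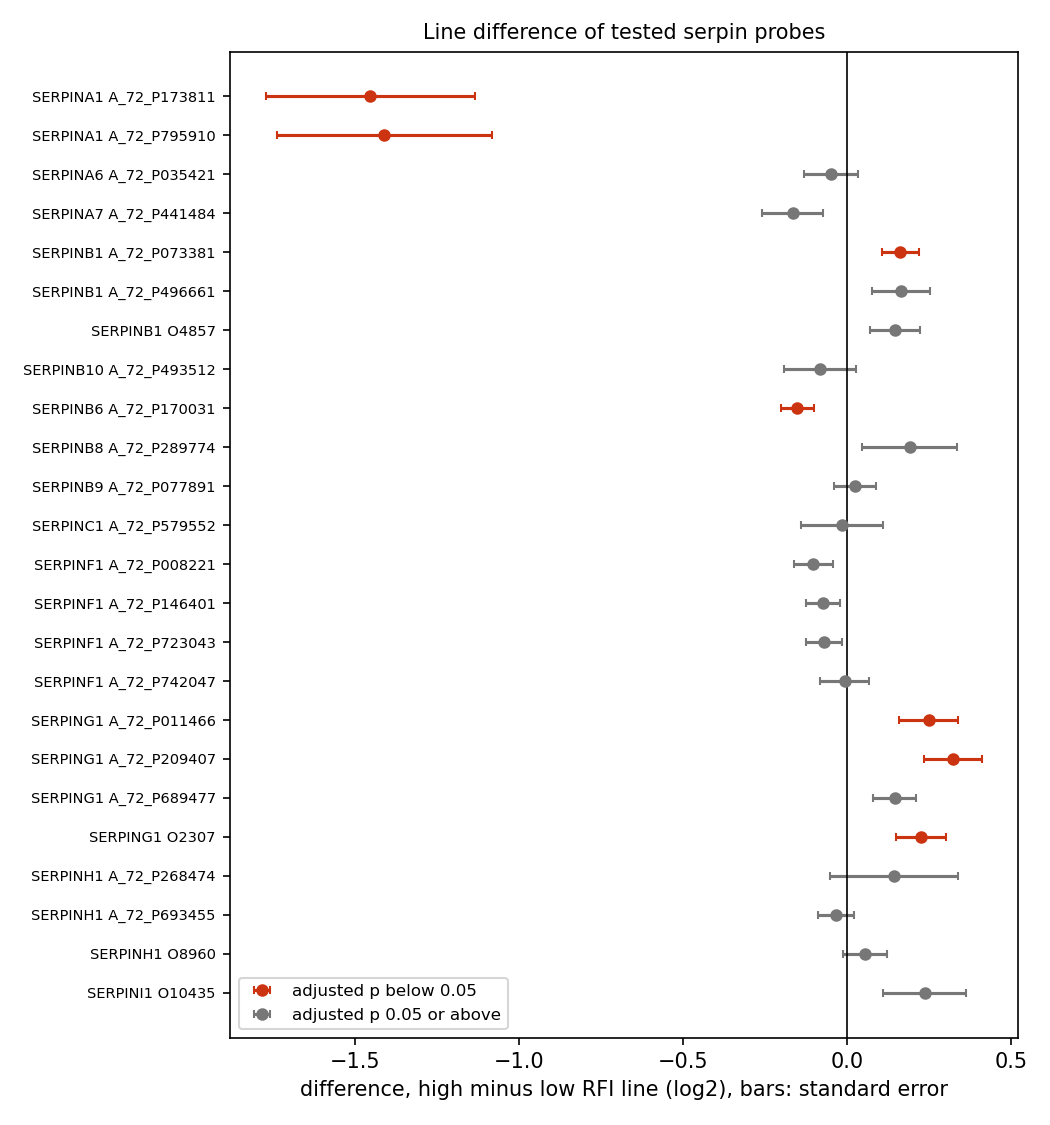
Difference between the high and low RFI lines (log2) for 24 of the tested serpin probes, with bars of 1 standard error; red points have a limma adjusted p below 0.05. SERPINA1 stands at -1.45 and -1.41, and the other probes shown lie between -0.17 and 0.32.

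SERPING1, which inhibits the C1r, C1s, kallikrein and factor XII proteases, rose in the high RFI line on 3 of its 4 probes, and by little. On A_72_P209407 the lowest, median and highest levels were -3.09, -2.59 and -2.15 in low RFI and -2.54, -2.42 and -1.84 in high RFI pigs fed HF. On the LF diet they were -3.28, -2.49 and -1.92 against -2.73, -2.08 and -1.66. The lines overlapped widely, yet 22 of 24 high RFI pigs were above the mean of the low RFI pigs.

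The difference was 0.32 (SE 0.09, limma adjusted p = 0.00989), or 1.25-fold. Probes O2307 and A_72_P011466 gave 0.23 (SE 0.08, limma adjusted p = 0.0363) and 0.25 (SE 0.09, limma adjusted p = 0.0484), and A_72_P689477 gave 0.14 (SE 0.06, limma adjusted p = 0.115). The mean of the 4 probes differed by 0.24 (SE 0.08, limma adjusted p = 0.0255). The probe A_72_P209407 kept its call with all 12 alternatives, whereas A_72_P011466 lost it with 7 of them and O2307 with 2. Leaving out pig 41 was among these for both probes (limma adjusted p = 0.0724 and 0.0556). Without pig 45, A_72_P011466 lost its call (limma adjusted p = 0.0622) and O2307 kept it (limma adjusted p = 0.0486). Within slides A_72_P209407 was higher in high RFI pigs in 6 of 6, by 0.06 to 0.67, and O2307 in 5 of 6. The line difference of A_72_P209407 was 0.29 (SE 0.13) on HF and 0.36 (SE 0.13) on LF, and neither passed the threshold.

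Among the clade B serpins, SERPINB1 (an inhibitor of neutrophil elastase and cathepsin G) and SERPINB6 (an inhibitor of cathepsin G and other proteases) changed by small amounts in opposite directions. SERPINB1 A_72_P073381 had levels of -1.38 to -0.93 (median -1.16) in low RFI pigs and -1.31 to -0.47 (median -1.05) in high RFI pigs. The upper ends differed most, since 10 of 24 high RFI pigs were above the highest low RFI pig. It rose by 0.16 (SE 0.06, limma adjusted p = 0.0369), and the other tested probes of the gene gave 0.16 (SE 0.09, limma adjusted p = 0.199) and 0.15 (SE 0.08, limma adjusted p = 0.188). The call was lost without the filter on dim probes (limma adjusted p = 0.0735), and the mean of the 3 probes did not pass (limma adjusted p = 0.0905). The highest level was that of pig 14 (high RFI, HF diet), whose array had the next lowest correlation with the others after pig 45; its part in the result was not tested. A further pair of SERPINB1 probes with the same 60 bases was near background, on 10 and 5 arrays.

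SERPINB6 had levels of 1.72 to 2.38 (mean 2.08, SD 0.16) in low RFI and 1.46 to 2.21 (mean 1.93, SD 0.19) in high RFI pigs on its 1 probe. It fell by 0.15 on the log2 scale (SE 0.05, limma adjusted p = 0.0328), with 19 of 24 high RFI pigs below the low RFI mean. The call was lost with normexp (difference -0.12, limma adjusted p = 0.0808) and without the filter on dim probes (limma adjusted p = 0.166). Pig 45 had the lowest level, and without this pig the call was narrowly kept (difference -0.13, limma adjusted p = 0.0498). SERPINB8, which inhibits furin, was selected by the study for feed conversion on an energy basis; its probe was well above background on 37 arrays and differed by 0.19 (SE 0.14, limma adjusted p = 0.381). SERPINB9, the granzyme B inhibitor, differed by 0.02 (SE 0.06, limma adjusted p = 0.841), and SERPINB10, detected on 34 arrays, by -0.08 (SE 0.11, limma adjusted p = 0.649). SERPINB9 lies next to SERPINB1 in the RefSeq annotation.

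**Figure D3:**
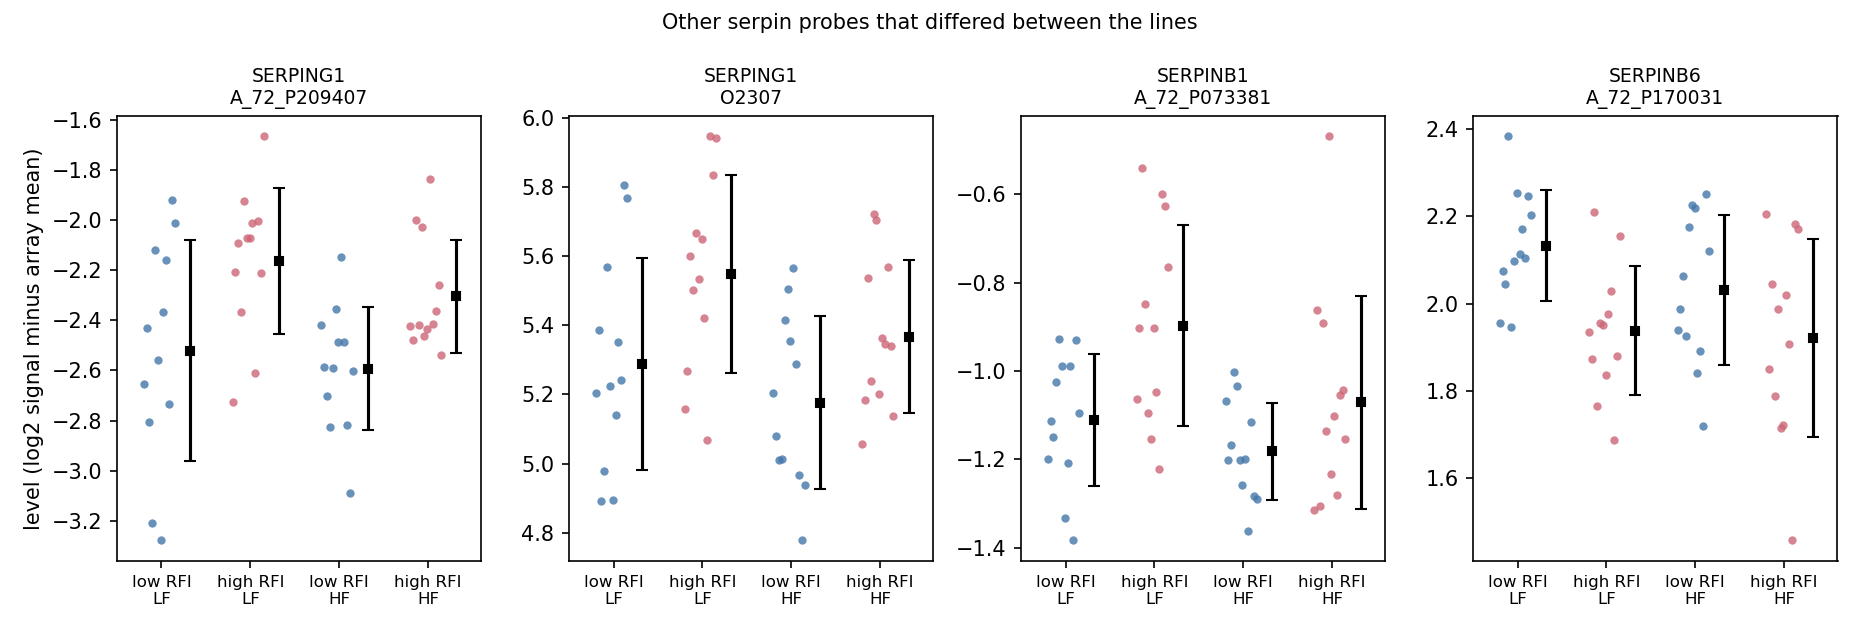
Level (log2 signal minus array mean) of 4 probes that differed between the lines, with 1 point per pig, low RFI in blue and high RFI in red, by diet; black squares and bars are the mean and SD of 12 pigs, and each panel has its own axis. SERPING1 and SERPINB1 have higher means and SERPINB6 a lower mean in high RFI pigs on both diets, with wide overlap and no call within a diet.

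Between the diets, 1 of the 28 serpin probes was called, a lower SERPINH1 on HF, against 0.42% of all tested probes, or 0.245% in that direction. HSP47, its product, binds procollagen in the endoplasmic reticulum. On A_72_P693455, HF-fed pigs had a lowest, median and highest level of -0.27, 0.17 and 0.41, and LF-fed pigs 0.04, 0.34 and 0.67. The diets overlapped over most of their range. The probe fell by 0.24 on the log2 scale on the HF diet (SE 0.05, limma adjusted p = 0.0338), within every one of the 6 slides. Probe O8960 gave -0.25 (SE 0.07, limma adjusted p = 0.0638), and A_72_P268474, well above background on 42 arrays, gave -0.24 (SE 0.20, limma adjusted p = 0.676). These differences are means over both lines. On A_72_P693455 the LF and HF means were 0.41 and 0.06 in low RFI pigs, and 0.26 and 0.14 in high RFI pigs. On O8960 they were 4.21 and 3.74 against 4.04 and 4.01. The diet difference within a line was not tested. The call is narrow: with 5 of the 12 alternatives the limma adjusted p of A_72_P693455 was 0.0718 to 0.158. Of the 28 serpin probes, 23 had a negative HF minus LF difference, with a median of -0.12 beside 0.0019 over all tested probes.

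No serpin probe had a line by diet interaction after adjustment by limma, as 0.0% of all probes did, and 6 serpin probes had an unadjusted p under 0.05 (1875 of all 42125 probes). Of these, 2 were SERPINH1 probes. On A_72_P693455 the lowest, median and highest levels were -0.26, 0.15 and 0.39 in low RFI and -0.27, 0.22 and 0.41 in high RFI pigs fed HF. With LF they were 0.06, 0.43 and 0.67 against 0.04, 0.20 and 0.52. The median was higher in high RFI pigs on HF and lower on LF, within wide overlap.

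For SERPINH1 O8960 the line difference was 0.27 (SE 0.09) on HF and -0.17 (SE 0.09) on LF, with an interaction of 0.44 (SE 0.13, unadjusted limma p = 0.00200, adjusted p = 0.999). For A_72_P693455 it was 0.08 (SE 0.08) on HF and -0.15 (SE 0.08) on LF, with an interaction of 0.23 (SE 0.11, unadjusted limma p = 0.0443, adjusted p = 0.999). These probes share no run longer than 5 bases and correlated at r = 0.85 across pigs. SERPINF1 (PEDF, a secreted non-inhibitory serpin) had 4 probes with line differences of -0.10 to -0.01, none called. SERPINI1 (neuroserpin) had a difference of 0.24 (SE 0.13, limma adjusted p = 0.196) on O10435. SERPINE2 (protease nexin 1) was selected by the study for RFI breeding value, is named PN-1 on the array and so falls outside the family rule; its 3 tested probes gave 0.02 to 0.17 with limma adjusted p of 0.382 to 0.926.

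**Figure D4:**
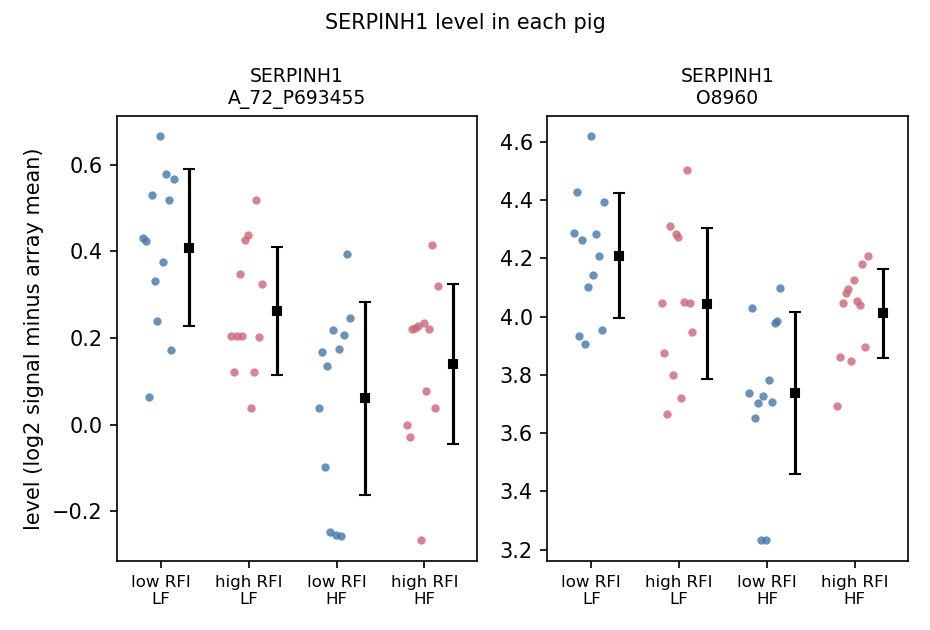
Level (log2 signal minus array mean) of 2 SERPINH1 probes, with 1 point per pig, low RFI in blue and high RFI in red, by diet; black squares and bars are the mean and SD of 12 pigs, and each panel has its own axis. SERPINH1 means are lower on HF than on LF, with the wider gap in low RFI pigs and 1 of the 2 probes called over both lines. The lines' means change order between the diets, without an interaction that passed adjustment.

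Of the proteases that serpins inhibit, 17 of 26 listed genes had a tested probe. Of their 45 probes, 15 were called higher and 2 lower in high RFI pigs, against 6.57% and 9.85% of all probes. All 15 came from CTSK, CTSS, PLAT and PLAU. The list was not matched to single serpins. C1R, C1S and F12, which SERPING1 inhibits, were tested and had no called probe, and the kallikrein gene KLKB1 was untested. Here and in the lists below, calls on probes of 1 gene are not independent. PLAT and PLAU, the tissue and urokinase plasminogen activators, which SERPINE2 inhibits, rose by up to 0.52 on 7 of 8 PLAT probes and all 3 PLAU probes; the eighth PLAT probe, well above background on 20 arrays, gave 0.19 (limma adjusted p = 0.423). PLAT A_72_P585786 went from a mean of 0.57 to 1.09 (SE of the difference 0.11, limma adjusted p = 0.000975), and the PLAU probe with the widest difference gave 0.52 (SE 0.13, limma adjusted p = 0.00428). CTSS, the lysosomal cathepsin S, rose by 0.75 on O9267 (SE 0.17, limma adjusted p = 0.00228). The called lower probes, named after their values were seen, were F10 A_72_P036021, coagulation factor X, at -0.31 (SE 0.10, limma adjusted p = 0.0238) and ELANE A_72_P084881, neutrophil elastase, at -0.13 (SE 0.04, limma adjusted p = 0.0350). The list's median difference was 0.20, beside -0.03 over all tested probes. Among genes of plasminogen activation and clearance, 6 of 23 probes were called, all higher, where 6.57% of all probes were: ANXA2 A_72_P554722, a plasminogen-binding annexin, by 0.57 (SE 0.11, limma adjusted p = 0.000368), PROS1 O9422, the anticoagulant protein S, by 0.54 (SE 0.09, limma adjusted p = 7.11e-05), and PLAUR O8891, the urokinase receptor, by 0.35 (SE 0.08, limma adjusted p = 0.00237), besides S100A10. A further PLAUR probe, A_72_P177311, gave -0.04 (limma adjusted p = 0.425).

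Of the collagens and folding enzymes that SERPINH1 works with, 8 of 39 probes were called, all higher in the high RFI line, beside 16.4% of all probes called in either direction and 6.57% called higher. They included COL1A1 A_72_P105886 at 0.39 (SE 0.11, limma adjusted p = 0.0127), COL1A2 A_72_P095131 at 0.32 (SE 0.10, limma adjusted p = 0.0250) and FKBP10 O9380 at 0.23 (SE 0.07, limma adjusted p = 0.0230), a prolyl isomerase of collagen folding. SERPINH1 itself was not called between the lines, at -0.03 to 0.14. In the angiotensin axis, downstream of the non-inhibitory serpin AGT, 2 of 8 probes were called, beside 16.4% of all probes: AGTR1 A_72_P392083 at 0.24 (SE 0.09, limma adjusted p = 0.0475) and ACE A_72_P599978 at -0.17 (SE 0.04, limma adjusted p = 0.00414). The other probes of these genes gave 0.10 and 0.11 for AGTR1 and -0.14 to 0.17 for ACE, none called. No probe of these 4 lists was called between the diets.

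Markers of several cell types also differed between the lines. Of 75 probes of 9 skeletal muscle fibre genes, 18 were called lower and none was called higher in high RFI pigs, against 9.85% and 6.57% of all probes, with summed levels of 12.95 to 13.44 (median 13.22) in low and 12.84 to 13.32 (median 13.14) in high RFI pigs. The share of all probes called higher, 6.57%, is the background for each list that follows. Of 19 macrophage and neutrophil probes, 9 were called higher, from CD14, CD163, CSF1R and LYZ, with S100A9 untested. The summed level is the log2 of the summed signal of the brightest probe of each gene, and for this list it was 1.24 to 3.41 (median 2.32) in low RFI and 1.84 to 5.59 (median 2.97) in high RFI pigs. Of 32 adipocyte probes, 11 were called higher, from FABP4 and LIPE, with summed levels of 4.53 to 6.01 (median 5.24) against 4.87 to 6.22 (median 5.49). Of 26 fibroblast probes, 4 were called higher, from COL1A1 and COL1A2, which the collagen list also holds, with 7.76 to 8.69 (median 8.06) against 7.66 to 8.71 (median 8.28). Of 18 endothelial probes, 2 were called higher, both of TEK, with 4.44 to 5.17 (median 4.80) against 4.37 to 5.30 (median 4.77), and of 10 T cell probes none was called, with a lowest and median level of -0.79 and 0.20 against -1.28 and 0.15. The part of these cells in the differences of SERPING1, SERPINB1, the proteases and the collagens was not tested.

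Among genes of plasma proteins made in the liver, as alpha-1-antitrypsin is, 1 of 47 probes of 8 tested genes was called higher in high RFI pigs, for TF, and none was called lower, against 6.57% and 9.85% of all probes. The median difference was -0.02. The summed level was 4.86 to 6.38 (median 5.34) in low and 4.93 to 5.70 (median 5.24) in high RFI pigs. FGA was untested and AHSG was not analysed here.

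Within the groups, SERPINA1 varied together with SERPINA6. Deviations of each pig from its group mean were compared between SERPINA1 A_72_P173811 and the brightest tested probe of each of the other 13 genes, with two-sided permutation tests of 100000 permutations of pigs within groups. SERPINA6 gave r = 0.50 (permutation p = 0.00016, adjusted over 13 genes 0.00208) and Spearman rho = 0.62 (permutation p = 2e-05, adjusted 0.00026) over 48 pigs. Without the 2 pigs farthest from the SERPINA1 median, pigs 41 and 7, r was 0.61. It was 0.56 in low and 0.57 in high RFI pigs, 24 each, with permutation adjusted p of 0.0482 and 0.0742. It was 0.36 on scan day 1 (permutation p = 0.224) and 0.65 on scan day 2 (permutation p = 0.00018), so that the relation did not pass on scan day 1. With slide means removed it was 0.52. Pig 8 (low RFI, HF diet, scan day 2) had the highest SERPINA6 level, -0.13, with SERPINA1 at 1.91. The SERPINA6 correlation without pig 8 was not computed. SERPINC1 followed at r = 0.36 and rho = 0.37, and SERPINB1 ran opposite at r = -0.36 and rho = -0.39. The permutation adjusted p was 0.0496 by rank for both, and 0.0890 and 0.138 by Pearson. On the SERPINC1 probe, pigs 8 and 45 had the highest levels, 1.25 and 1.13, and pig 50 followed at 0.60. The SERPINC1 correlation without pigs 8 and 45 was not computed. SERPING1 gave r = -0.34 and rho = -0.28, with permutation adjusted p of 0.0878 and 0.187. The other genes described here had r between -0.14 and 0.31.

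**Figure D5:**
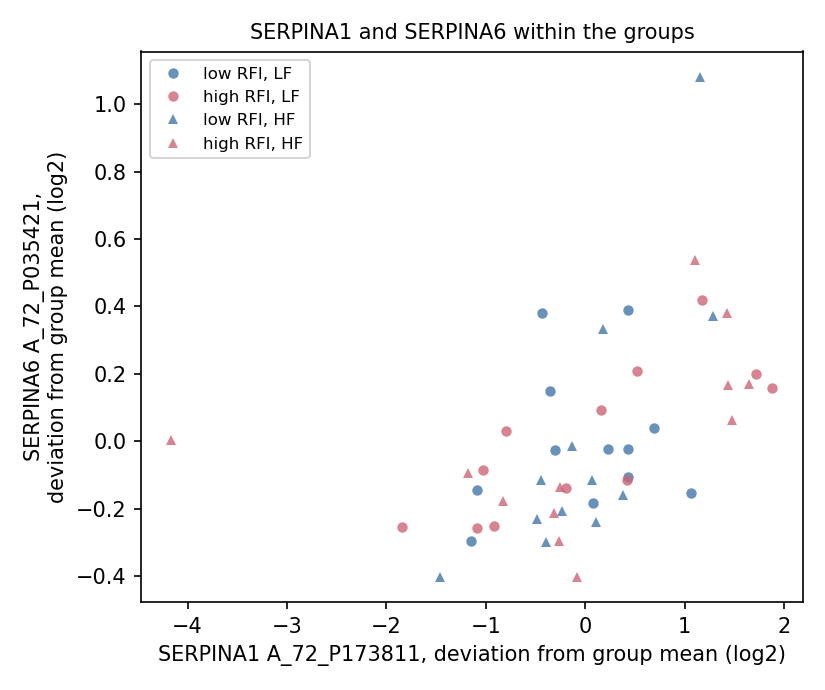
Deviation of SERPINA6 against deviation of SERPINA1 from the group mean (log2), with 1 point per pig and shape and colour for diet and line. Pigs with more SERPINA1 than their group mean tended to have more SERPINA6 (r = 0.50, n = 48), and pig 41, with the lowest SERPINA1, lies apart at the left.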

How the data were processed

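The authors deposited scanner values as spot intensities, made with Agilent Feature Extraction 10.7.3.1, whose parameters, per the file headers, had spatial and multiplicative detrending on for all 48 arrays. They also deposited a table of log2 values, which equals the log2 median signal minus the array median over 34472 features and was used as an alternative. Centring on the mean of each pig is the kind of scaling the methods of the study give, but the study took the mean over the annotated probes of its merged dataset, and other probes and signals were used here.

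From the processed signals, outlier spots were left out, spots of a probe were averaged, and log2 values were centred on the mean of the 42125 probes that passed the detection filter of 12 arrays. A linear model of 4 group means (limma 3.58.1, R 4.3.3) gave line, diet and interaction contrasts, with Benjamini-Hochberg adjustment over all tested probes and a threshold of 0.05. Correlations used Python 3.11.15, numpy 2.4.6 and pandas 2.3.3. The fitting step was tested on simulated data. Probes were given a symbol from the array or, through RefSeq accessions of Sscrofa11.1, for 24830 of 60305 probes. A gene was named when it was a member of the family, with full values for SERPINA1 and for genes with a called probe, and up to 3 genes of each pathway list with the widest line difference among the called. The members, the lists of proteases, plasminogen genes, collagen partners, angiotensin genes and cell markers, and the tests were chosen with earlier results of these data known. The number of arrays limits the precision, and the individual feed efficiency traits were not analysed here. Values of 1 member gene and 1 probe sequence are not reported here, though the counts include them.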

Additional observations from a re-analysis of the deposited data

How the results depend on the processing

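The SERPINA1 line difference stayed below 0 and past the threshold under all 11 alternatives that could be run for each probe. Both probes leave the test when every array must be well above background. The count of 7 serpin probes between the lines was 5 to 7 under 11 alternatives and 4 without the filter on dim probes. On the HF diet the count of 2 became 1 without the filter or without pig 41, and 0 when all 48 arrays had to be above background. On the LF diet and for the interaction it was 0 throughout. The single diet call became 0 with 75th percentile scaling, quantile normalization, normexp, no filter and the deposited table. With normexp the line difference of SERPINH1 A_72_P693455 was 0.0012 against -0.0332, neither called. Taking the mean of the probes of a gene left 3 genes called between the lines of the 4, with SERPINB1 lost. Genes that varied with SERPINA1 numbered 1 by Pearson over all pigs, 3 by Spearman, 2 in low RFI and 0 in high RFI pigs, 0 on scan day 1 and 2 on scan day 2. The alternatives without pig 41 and without pig 45, and the co-variation within scan days or with slide means removed, were chosen after seeing the data. The cause of these changes was not tested. No paired analysis was possible because the samples share no replicate numbers. Dim signals limit SERPINB10, SERPINB8 and SERPINH1 A_72_P268474, detected on 34, 37 and 42 arrays.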

Other observations

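Some probes of the array carry no serpin symbol but match a serpin transcript by their RefSeq accession, and they give further readings outside the family rule. A SERPINA1 probe that shares 55 bases with A_72_P173811 and correlated with it at r = 0.99 fell by 1.43 on the log2 scale in the high RFI line (SE 0.33, limma adjusted p = 0.00213). As it reads almost the same bases, it repeats the measurement and is no separate evidence. For SERPINI1, neuroserpin, 6 such probes were tested, none was called, and 5 had a positive difference, with a range of -0.07 to 0.31 and limma adjusted p of 0.0518 to 0.563. The probe that differed in sign, A_72_P577059, correlated with O10435 at r = 0.22 across pigs, against r = 0.66 to 0.75 for the other 5. The 3 SERPINE2 probes were lower on the HF diet by 0.24 to 0.26, with limma adjusted p of 0.304 to 0.397. SERPINA5 and SERPIND1, also found by accession, were not well above background on enough arrays to be tested.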
